A study of Mus musculus with 9 samples.

Results

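Eph receptors, class 3 semaphorins, Slits and netrins are families of proteins that tell growing axons and moving cells where to go, and their transcripts were read here in cells of the mouse somite at E9.5. The genes were a list of 39 named Eph receptors, ephrins, class 3 semaphorins, plexins, neuropilins, Slits, Robos, netrin and netrin receptors, chosen by name. Of these 38 had at least 1 probe set of their own on the array, which gave 92 probe sets of the 45037 tested, and Ephb2 was not measured. Triplicate samples of 3 cell populations were profiled on 9 Affymetrix whole-genome mouse arrays.

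All 3 populations came from the hypaxial part of interlimb somites, the stretch of trunk between the fore and hind limb levels, and were separated by flow cytometry on GFP fluorescence. PAX3-FKHR/GFP cells were GFP positive cells of Pax3PAX3-FKHR/GFP embryos, in which the first Pax3 allele encodes PAX3-FKHR, a fusion protein with the DNA binding domains of PAX3 and the strong activation domain of FKHR (FOXO1), and the other encodes GFP. The fusion allele also carries an IRES-nlacZ reporter, was floxed, and was activated by PGK-Cre, which acts throughout the embryo. GFP/+ cells were GFP positive cells of Pax3GFP/+ embryos, which keep a wild-type copy of Pax3, whereas the PAX3-FKHR/GFP embryos have none. A difference between these groups therefore combines the gain of the fusion with the loss of the wild-type copy, and these cannot be told apart. GFP- cells were the GFP negative cells of the same region. Their genotype is absent from their label, and the study's methods speak both of GFP- samples from Pax3GFP/+ embryos and of a Pax3+/+ group on the arrays, so it is not settled here. The lines were kept on a C57BL6/DBA2 background, and material from many embryos was pooled into each sample. The labels describe forelimb buds in the dissociation step, although titles, source and tissue all give interlimb somites.

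Eph receptors are receptor tyrosine kinases whose ligands, the ephrins, are themselves held in the membrane of the neighbouring cell, so that signals run in both directions where cells touch. Class 3 semaphorins are secreted, bind neuropilins and signal through plexins. Slits are secreted ligands of Robo receptors, and netrin 1 attracts through DCC and repels through UNC5 receptors. In the trunk these systems are best known for guiding motor axons and neural crest cells through the somites and for shaping blood vessels, and Eph signalling also acts at somite boundaries and on muscle progenitors that migrate to the limb.

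Pax3, which marks the dermomyotome, was read at a mean of 8.29 on the log2 scale in PAX3-FKHR/GFP cells, 9.20 in GFP/+ cells and 4.50 in GFP- cells. The study states that PAX3-FKHR/GFP embryos do not transcribe the mouse gene and treats Pax3 as a control. Its level in those cells is therefore not a measure of dermomyotome content, and what the probe set reads there was not tested. The 8 dermomyotome markers measured were all called higher in GFP/+ than in GFP- cells. Other cells were present. Myotome and sclerotome markers were called higher for 4 of 5 each. Of the 6 neural crest and glial markers 4 were called higher in GFP/+ than in GFP- cells, and the mean of their log2 values in a sample was 8.14 to 8.28 in GFP/+ cells, 8.45 to 8.60 in PAX3-FKHR/GFP cells and 6.24 to 6.33 in GFP- cells. In GFP- cells endothelial markers (6.10 to 6.16 against 5.19 to 5.29 in GFP/+ cells, 6 of 8 called), erythroid markers (12.13 to 12.23 against 7.27 to 7.38, 4 of 4), epithelial markers (8.38 to 8.44 against 5.34 to 5.45, 4 of 5), lateral and intermediate mesoderm markers (7.01 to 7.09 against 5.17 to 5.26, 4 of 6) and neural tube markers (6.99 to 7.05 against 5.96 to 6.0, 5 of 8) stood higher. Between PAX3-FKHR/GFP and GFP/+ cells 3 dermomyotome markers were called higher and 2 lower, 1 of 5 myotome markers higher and 3 lower, 1 of 5 sclerotome markers higher and 2 lower, and 2 of 8 neural tube markers lower, with 1 marker each of neural crest, erythroid cells and lateral mesoderm higher and none of endothelium, epithelium or leukocytes called. The part of these other cells in the results that follow was not tested, and in such bulk samples fewer cells of a type and less RNA per cell cannot be told apart. Array medians lay between 4.63 and 4.68, and arrays correlated at 0.996 to 0.998 within groups.

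Promoters are shown for the 5 genes that differed between PAX3-FKHR/GFP and GFP/+ cells and had an entry in the RefSeq promoter table (GRCm38.p6). Slit1, also called, had none. Each window holds 300 bases, written 5′ to 3′ on the strand of the gene. Those of Epha2, Epha3, Sema3c and Sema3d span the start of the gene, with most bases before it. The Sema3a window instead lies inside the gene (chr5:13124822-13603485), far downstream of its outer start, so its motif count does not describe that start. Capitals mark ATTA, the core bound by homeodomains, and GTCAC, a core of sites bound by the paired domain, both of which Pax3 contains. Both strands were searched, so TAAT and GTGAC are the same motifs read from the other strand. The windows are chr4:141300971-141301270 (+) for Epha2, chr16:63864126-63864425 (-) for Epha3, chr5:13396534-13396833 (+) for Sema3a, chr5:17574566-17574865 (+) for Sema3c and chr5:12382916-12383215 (+) for Sema3d.
Epha2: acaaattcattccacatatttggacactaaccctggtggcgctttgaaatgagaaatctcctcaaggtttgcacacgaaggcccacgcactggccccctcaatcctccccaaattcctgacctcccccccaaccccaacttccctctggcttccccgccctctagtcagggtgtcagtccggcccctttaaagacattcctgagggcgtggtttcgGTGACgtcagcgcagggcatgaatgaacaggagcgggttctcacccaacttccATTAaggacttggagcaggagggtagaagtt
Epha3: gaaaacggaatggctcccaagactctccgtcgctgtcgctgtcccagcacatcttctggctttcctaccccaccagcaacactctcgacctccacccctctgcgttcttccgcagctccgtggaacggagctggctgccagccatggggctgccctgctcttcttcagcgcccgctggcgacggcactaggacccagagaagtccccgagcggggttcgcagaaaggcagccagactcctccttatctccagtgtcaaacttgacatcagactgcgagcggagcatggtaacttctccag
Sema3a: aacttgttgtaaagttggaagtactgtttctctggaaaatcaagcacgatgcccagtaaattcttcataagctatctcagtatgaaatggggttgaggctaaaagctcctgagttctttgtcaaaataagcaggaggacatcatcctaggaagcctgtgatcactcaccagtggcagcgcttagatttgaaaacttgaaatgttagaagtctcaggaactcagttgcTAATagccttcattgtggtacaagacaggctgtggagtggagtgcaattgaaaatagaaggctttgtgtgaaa
Sema3c: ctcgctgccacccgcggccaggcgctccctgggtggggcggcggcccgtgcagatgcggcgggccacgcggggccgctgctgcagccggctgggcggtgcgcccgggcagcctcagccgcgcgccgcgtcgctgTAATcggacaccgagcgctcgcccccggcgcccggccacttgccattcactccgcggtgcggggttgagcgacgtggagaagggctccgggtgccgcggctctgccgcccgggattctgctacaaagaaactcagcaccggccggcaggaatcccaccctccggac
Sema3d: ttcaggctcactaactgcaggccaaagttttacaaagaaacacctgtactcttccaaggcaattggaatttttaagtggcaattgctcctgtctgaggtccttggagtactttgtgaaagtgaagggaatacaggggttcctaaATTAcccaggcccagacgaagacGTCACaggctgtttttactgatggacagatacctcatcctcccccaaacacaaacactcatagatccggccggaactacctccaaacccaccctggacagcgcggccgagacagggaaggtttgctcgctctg
Epha2 and Sema3d held 1 of each motif, Sema3a and Sema3c held 1 ATTA, and Epha3 held neither. ATTA was found in 58.0% and GTCAC in 45.6% of all 32851 promoters of this length, and in 51.4% and 35.1% of 37 promoters of 32 guidance genes, so the motifs were no more frequent here than in promoters at large. A match is a description of these letters and not a binding site.

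PAX3-FKHR/GFP cells had more Slit1, Sema3a and Epha2 RNA than GFP/+ cells and less Epha3, Sema3d and Sema3c RNA. Between GFP/+ and GFP- cells more of these genes differed, and most of them were lower in the GFP positive cells, led by the netrin receptor gene Unc5b, while Ntn1, Sema3d and Nrp2 were higher. Each gene was read from its brightest probe set and called where the adjusted p from limma was under 0.05 and the log2 difference reached 0.5, which is 1.41-fold. With PAX3-FKHR, 3 of 38 genes were called higher and 3 lower, where 1.31% of all 18193 genes were called higher and 0.715% lower. An unadjusted p under 0.05 from limma was found for 15 of the 38. The share of all genes under that unadjusted limit was not counted, so this and the later counts of it do not set guidance genes apart. In GFP/+ against GFP- cells 3 were higher and 11 lower, with 1.92% and 5.05% of all genes. In PAX3-FKHR/GFP against GFP- cells 3 were higher and 10 lower, with 2.63% and 5.2% of all genes. Counted by probe set, 13 of 92 were called with PAX3-FKHR, 26 in GFP/+ against GFP- cells and 27 in PAX3-FKHR/GFP against GFP- cells, where 1.36%, 4.65% and 5.35% of all probe sets were called. The median difference over the 38 genes was -0.03, -0.06 and -0.12 on the log2 scale in the 3 comparisons, beside 0.00, 0.01 and 0.01 over all genes. The median size of the difference, whatever its sign, was 0.157, 0.254 and 0.314 for the guidance genes and 0.0766, 0.0902 and 0.0944 for all genes.

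**Figure D1:**
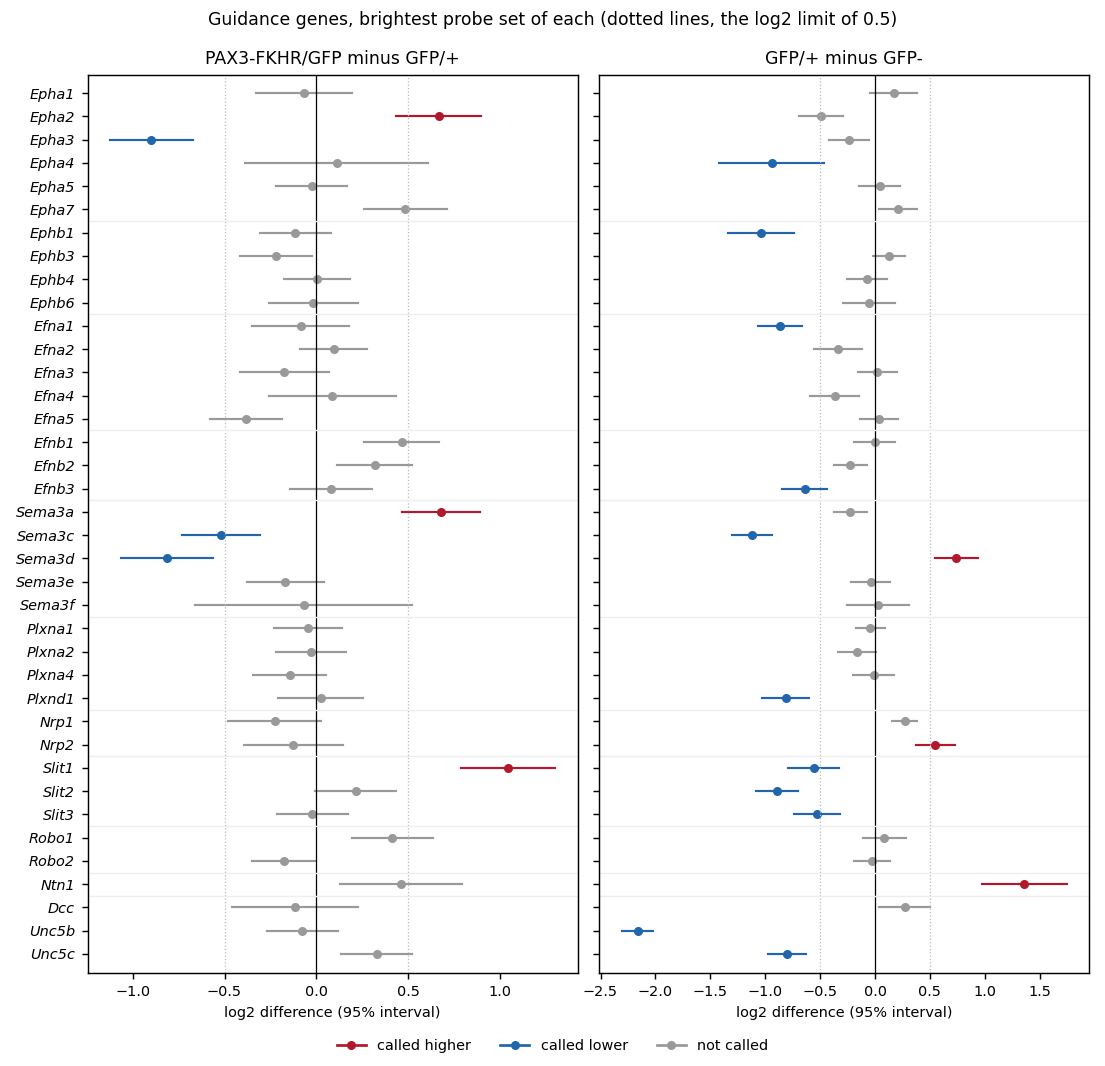
Difference between groups for each of the 38 guidance genes, on the log2 scale, with 95% intervals: PAX3-FKHR/GFP minus GFP/+ on the left and GFP/+ minus GFP- on the right. Red genes were called higher, blue genes lower and grey genes neither, and the Slit genes all lie to the left of 0 in the right panel, from -0.89 to -0.53.

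The comparisons share the GFP/+ samples, so the same gene can be read side by side in both but not as separate evidence. Slit1 was called higher with PAX3-FKHR and lower in GFP/+ than in GFP- cells, and Sema3d had the opposite pair of calls. Sema3c was lower in both. Epha2 and Sema3a were called higher and Epha3 lower with PAX3-FKHR alone, 11 genes were called in GFP/+ against GFP- cells alone, and 21 in neither. The plot of the 6 genes called with PAX3-FKHR shows each sample. A p-value here measures the spread between these pooled samples.

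**Figure D2:**
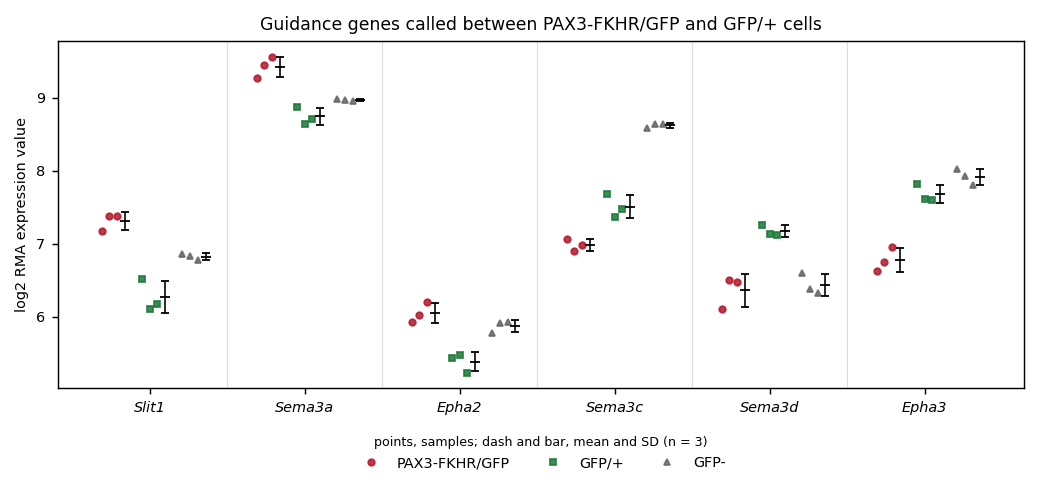
RNA level of the 6 guidance genes called between PAX3-FKHR/GFP (red circles) and GFP/+ cells (green squares), with GFP- cells (grey triangles), as log2 RMA values. Each point is a sample, with the mean and SD of 3 samples beside it, and levels of different genes are not comparable. In each gene no PAX3-FKHR/GFP sample falls within the range of the GFP/+ samples, which the choice of genes by this same comparison makes likely.

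Among A-type Eph receptors, PAX3-FKHR/GFP cells had more Epha2 and less Epha3 RNA than GFP/+ cells, and among B-type receptors none of the 4 was called in that comparison by limma or by the local pooled error test, with 1 at an unadjusted p under 0.05. Epha2, a receptor of ephrin-A ligands found on many epithelia, was read at 5.93, 6.02 and 6.20 on the log2 scale in PAX3-FKHR/GFP samples, at 5.43, 5.48 and 5.24 in GFP/+ samples and at 5.78, 5.92 and 5.92 in GFP- samples. The GFP/+ samples were the lowest, and the PAX3-FKHR/GFP samples stood just above the GFP- samples with no overlap. It rose 1.59-fold with PAX3-FKHR (log2 difference 0.67 ± 0.10, SE, adjusted p = 0.0077), but leaving out GFP/+ replicate 3 or replicate 2 of the PAX3-FKHR/GFP samples ended the call (adjusted p = 0.063 and 0.062). The difference of GFP/+ from GFP- cells was -0.49 (adjusted p = 0.0065), just under the limit of 0.5, and that of PAX3-FKHR/GFP from GFP- cells was 0.18 (95% interval -0.03 to 0.38).

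Epha3, which binds ephrin-A5 and ephrin-A2 and is known in axial muscle innervation, was at 6.63, 6.76 and 6.95 in PAX3-FKHR/GFP samples, 7.82, 7.61 and 7.60 in GFP/+ samples and 8.02, 7.94 and 7.80 in GFP- samples. On this brightest probe set it was the fusion samples that stood apart, while the ranges of GFP/+ and GFP- samples overlapped. The RNA fell 1.86-fold with PAX3-FKHR (adjusted p = 0.00089), kept its call with each of the 6 samples left out in turn (adjusted p 0.0029 to 0.019), and was 2.20-fold lower than in GFP- cells (adjusted p = 1.2e-05). A second probe set fell by 0.90 as well. On it GFP/+ and GFP- samples did not overlap and differed by -0.32 (adjusted p = 0.028), under the limit. The remaining 2 probe sets, with means of 3.36 and 3.08, differed by -0.20 and 0.00 with PAX3-FKHR.

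Epha7, another receptor of ephrin-A ligands, was at 8.60, 8.55 and 8.84 in PAX3-FKHR/GFP samples on its brightest probe set. There GFP/+ samples read 8.33, 8.12 and 8.09 and GFP- samples 7.91, 7.95 and 8.04, an order of 3 groups without overlap. That probe set differed by 0.48 with PAX3-FKHR (adjusted p = 0.042), under the limit, and was called higher than in GFP- cells (0.69 ± 0.09, adjusted p = 0.00038). The step between GFP- and GFP/+ cells on it was 0.21 and was not called (adjusted p = 0.16). The second brightest read 7.65, 8.0 and 7.92 in PAX3-FKHR/GFP samples against 7.14, 7.29 and 6.67 in GFP/+ samples and was called (1.77-fold, adjusted p = 0.019), as was the dimmest (1.66-fold, adjusted p = 0.035). Neither call was stable. The first ended without replicate 1 or 3 of GFP/+ or replicate 2 or 3 of PAX3-FKHR/GFP (adjusted p 0.067 to 0.17). The other ended when any of these or GFP/+ replicate 2 was left out (adjusted p 0.079 to 0.23). The remaining probe set, with a mean of 4.50, overlapped between groups in every comparison. Its difference with PAX3-FKHR was 0.42 (adjusted p = 0.49). On each of the dimmer Epha7 probe sets GFP/+ and GFP- samples overlapped.

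Epha4, which binds ephrins of both classes, differed by 0.11 with PAX3-FKHR (95% interval -0.39 to 0.61) but was lower in GFP/+ than in GFP- cells by 0.94 on the log2 scale. Its values were 6.56, 7.53 and 7.44 in GFP/+ samples, 7.98, 8.15 and 8.23 in GFP- samples and 7.36, 7.51 and 7.0 in PAX3-FKHR/GFP samples. GFP/+ replicate 1 stood well below the other GFP/+ samples, and the call (adjusted p = 0.022) was lost without GFP/+ replicate 3 or any single GFP- replicate (adjusted p 0.050 to 0.13). A dimmer Epha4 probe set, on which GFP/+ replicate 1 was not low, read 6.21, 6.13 and 6.18 against 7.41, 7.21 and 7.16 and was called with an adjusted p of 1.3e-05. Another, on which that replicate was again low (6.05), was called (adjusted p = 0.045). It lost its call without GFP/+ replicate 2 or 3 or any single GFP- replicate (adjusted p 0.060 to 0.20). The remaining Epha4 probe sets differed by -0.40 each and were not called. Ephb1, a receptor of ephrin-B ligands, was at 5.11, 5.08 and 5.20 in GFP/+ samples and at 5.96, 6.51 and 6.03 in GFP- samples, so it was 2.05-fold lower in GFP/+ cells (adjusted p = 0.0007), and PAX3-FKHR/GFP samples (4.96 to 5.06) were 2.22-fold lower than GFP- samples (adjusted p = 0.00014). Ephb3 and Ephb4 differed by at most 0.22 in the 3 comparisons and were not called, and Epha1, Epha5 and Ephb6, the last of which lacks kinase activity, lay below the array median in every sample.

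Of the ephrins none of 8 was called with PAX3-FKHR by its brightest probe set, with limma or the local pooled error test, and 3 had an unadjusted p under 0.05. Efnb1, a transmembrane ephrin, came nearest, at 8.36, 8.43 and 8.47 in PAX3-FKHR/GFP samples, 8.11, 7.79 and 7.97 in GFP/+ samples and 7.90, 8.01 and 7.97 in GFP- samples (difference from GFP/+ 0.47, adjusted p = 0.031). PAX3-FKHR/GFP samples were above both other groups, which overlapped each other. Its second probe set read 7.78, 7.94 and 8.01 against 7.30, 7.28 and 7.31 in GFP/+ samples and was called (1.53-fold, adjusted p = 0.0028). Efnb2, which marks arterial endothelium and the posterior part of each somite, differed by 0.32 (adjusted p = 0.18), and Efna5, a ligand of Epha3, by -0.38 (adjusted p = 0.07).

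Efna1 and Efnb3 were lower in GFP/+ than in GFP- cells. Efna1, a ligand of Epha2, was at 4.95, 4.79 and 4.88 in GFP/+ samples, 5.87, 5.70 and 5.64 in GFP- samples and 5.05, 4.69 and 4.63 in PAX3-FKHR/GFP samples. It was 1.82-fold lower in GFP/+ cells (adjusted p = 0.00014), where endothelial markers were also lower, and its other probe set, with a mean of 3.50, differed by -0.08. Whether endothelial cells had a part in the Efna1 difference was not tested. Efnb3, better known in the midline of the neural tube, was lower by 0.64 (adjusted p = 0.0013) and below GFP- cells by 0.56 in PAX3-FKHR/GFP cells (adjusted p = 0.00046). The other 6 ephrins differed between GFP/+ and GFP- cells by -0.37 to 0.04.

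Class 3 semaphorins gave calls in both directions with PAX3-FKHR, with Sema3a higher, Sema3d and Sema3c lower, and Sema3e and Sema3f not called. Sema3a, a repellent of sensory and motor axons that acts through neuropilin 1, was at 9.28, 9.45 and 9.55 in PAX3-FKHR/GFP samples, 8.87, 8.65 and 8.72 in GFP/+ samples and 8.99, 8.97 and 8.96 in GFP- samples. All PAX3-FKHR/GFP samples were above every other sample. It rose 1.60-fold (0.68 ± 0.096, adjusted p = 0.0037), and its dimmer probe sets rose 2.10-fold and 1.79-fold (adjusted p = 0.0014 and 0.0022). Leaving out GFP/+ replicate 2 or 3, or replicate 2 of PAX3-FKHR/GFP, put the adjusted p just above the threshold (0.053, 0.050 and 0.054). GFP/+ cells differed from GFP- cells by -0.22 (adjusted p = 0.071) and PAX3-FKHR/GFP cells from GFP- cells by 0.46, with calls for both dimmer probe sets in the latter (0.89 and 0.54).

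Sema3d, a secreted semaphorin that also binds neuropilin 1, was highest in GFP/+ cells. Its values were 7.26, 7.14 and 7.12 there, 6.10, 6.50 and 6.48 in PAX3-FKHR/GFP samples and 6.61, 6.38 and 6.32 in GFP- samples, so the latter groups overlapped each other and neither reached the GFP/+ range. Sema3d fell 1.76-fold with PAX3-FKHR (adjusted p = 0.0033) and was 1.67-fold higher in GFP/+ than in GFP- cells (adjusted p = 0.00038), while PAX3-FKHR/GFP and GFP- cells differed by -0.07 (95% interval -0.34 to 0.19). The fall with PAX3-FKHR was called with each of the 6 samples left out (adjusted p 0.0066 to 0.036). A second probe set, with a mean of 4.24, differed by -0.19 and 0.10 in the first pair of comparisons and was not called. Neural crest cells also make Sema3d, and the mean of the neural crest markers was 8.45 to 8.60 in PAX3-FKHR/GFP, 8.14 to 8.28 in GFP/+ and 6.24 to 6.33 in GFP- samples. Their part in these differences was not tested.

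Sema3c, known for its role in cardiac neural crest, fell stepwise over the groups, from 8.59, 8.65 and 8.64 in GFP- samples to 7.68, 7.37 and 7.48 in GFP/+ samples and 7.07, 6.91 and 6.99 in PAX3-FKHR/GFP samples. No groups overlapped. GFP/+ cells were 2.17-fold below GFP- cells (adjusted p = 1e-05) and PAX3-FKHR/GFP cells 3.11-fold below them (adjusted p = 6.2e-08). The further step from GFP/+ to PAX3-FKHR/GFP cells, -0.52 ± 0.097, was close to the limit (adjusted p = 0.022) and was no longer called when any single GFP/+ replicate, or replicate 2 or 3 of PAX3-FKHR/GFP, was left out (adjusted p 0.050 to 0.18). Its dimmer probe set, with a mean of 4.16, differed by -0.09 with PAX3-FKHR and by -0.20 in GFP/+ against GFP- cells.

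At its brightest probe set Sema3f had the widest spread of these genes, from 10.02 to 11.33 among PAX3-FKHR/GFP samples. The name ending of that probe set (x_at) marks probes that may match other transcripts. Its dimmer probe sets had an SD of 0.16 and 0.05 in PAX3-FKHR/GFP samples, differed from GFP/+ cells by 0.14 and -0.07, and were not called. Sema3e was below the array median in every sample at its brightest probe set, while a dimmer one read 3.51, 3.42 and 3.31 in GFP/+ samples against 4.14, 4.05 and 3.98 in GFP- samples and was called lower (adjusted p = 0.00063).

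By their brightest probe sets the 6 semaphorin receptors were not called with PAX3-FKHR by limma or by the local pooled error test. On these probe sets 0 had an unadjusted p under 0.05, and differences of the 4 plexins lay between -0.14 and 0.02. Nrp1, the receptor of Sema3a and of VEGF, was read by 4 probe sets, all below GFP/+ cells in the mean of the PAX3-FKHR/GFP samples, by 0.23 to 0.49 on the log2 scale. The dimmer Nrp1 probe sets had an unadjusted p from limma of 0.0013, 0.0002 and 0.001, with differences under the limit. Their adjusted p was 0.066, 0.017 and 0.055, so only the second of these was under the threshold of 0.05. The nearest to a call read 8.07, 8.23 and 8.23 in PAX3-FKHR/GFP samples, 8.68, 8.58 and 8.61 in GFP/+ samples and 8.17, 8.07 and 8.03 in GFP- samples (difference -0.45, adjusted p = 0.017). On that probe set GFP/+ samples were above both other groups, which overlapped. It was called higher in GFP/+ than in GFP- cells (0.53, adjusted p = 0.00035), as was the dimmest (0.71, adjusted p = 9.9e-05), whereas the brightest Nrp1 probe set differed by 0.27 and was not called.

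Nrp2, the receptor of Sema3f and Sema3c, was at 8.51, 8.83 and 8.94 in PAX3-FKHR/GFP samples, 8.70, 8.95 and 8.99 in GFP/+ samples and 8.37, 8.34 and 8.30 in GFP- samples. Both GFP positive groups were above GFP- samples and overlapped each other. It was 1.46-fold higher in GFP/+ than in GFP- cells (adjusted p = 0.0015), and without GFP/+ replicate 3 the difference was 0.49, under the limit. Plxnd1, the receptor of Sema3e, is abundant in endothelium, whose markers were lower in GFP/+ than in GFP- cells. Its values were 6.71, 7.02 and 6.81 in GFP/+ samples, 7.77, 7.52 and 7.69 in GFP- samples and 6.82, 6.76 and 7.02 in PAX3-FKHR/GFP samples. Plxnd1 was 1.76-fold lower in GFP/+ than in GFP- cells (adjusted p = 0.00036) and differed by 0.02 with PAX3-FKHR (95% interval -0.21 to 0.26). Any part of endothelial cells in the difference from GFP- cells was not tested.

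**Figure D3:**
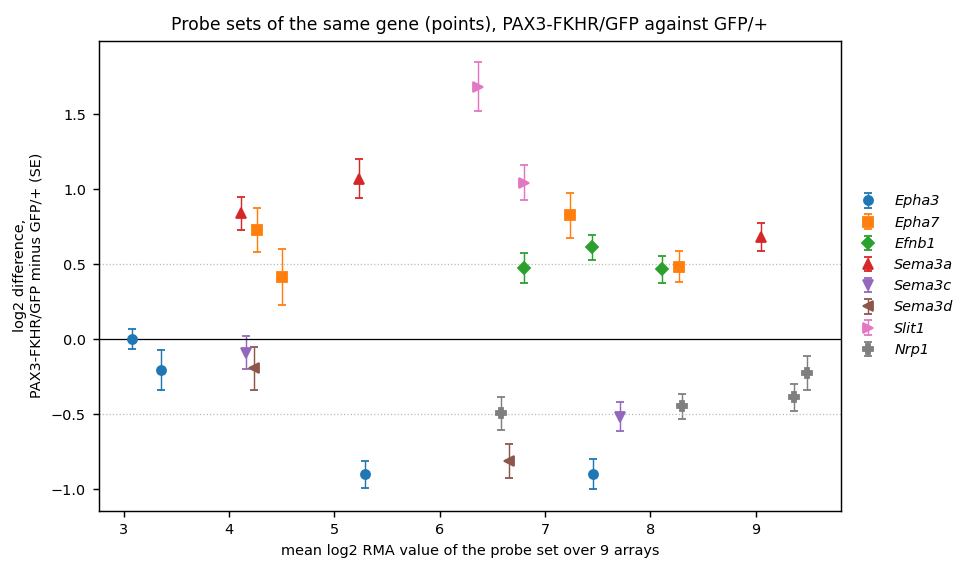
Difference PAX3-FKHR/GFP minus GFP/+ on the log2 scale, with its SE, for every probe set of 8 guidance genes, against the mean log2 RMA value of the probe set over 9 arrays. Probe sets of Epha3, Sema3c and Sema3d with means under 4.3 lie near 0, whereas all probe sets of Sema3a, Epha7, Efnb1 and Slit1 lie above it and all of Nrp1 below it.

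Of the 28 genes with several probe sets, none was called in opposite directions by different probe sets in any of the 3 comparisons. With PAX3-FKHR, 3 of the 5 called genes with several probe sets had a further one called in the same direction, and 2 more genes, Epha7 and Efnb1, were called by a dimmer probe set only. In GFP/+ against GFP- cells 5 of 10 had a further one called, and Nrp1, Dcc and Sema3e were called by a dimmer probe set only. The plot of difference against level shows these genes for PAX3-FKHR.

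All 3 Slit genes, which encode the ligands of Robo receptors, were lower in GFP/+ than in GFP- cells, and Slit1 alone was called with PAX3-FKHR, where it rose. Slit1 was at 7.17, 7.38 and 7.38 in PAX3-FKHR/GFP samples, 6.52, 6.11 and 6.17 in GFP/+ samples and 6.87, 6.83 and 6.78 in GFP- samples, with no overlap between groups. It rose 2.06-fold with PAX3-FKHR (1.04 ± 0.12, adjusted p = 0.00075) and kept its call with each of the 6 samples left out (adjusted p 0.00081 to 0.017). A second probe set read 7.07, 7.13 and 7.16 in PAX3-FKHR/GFP samples, 5.65, 5.68 and 4.97 in GFP/+ samples and 6.57, 6.52 and 6.57 in GFP- samples. This was the largest change with PAX3-FKHR among the 92 probe sets, at 3.22-fold (adjusted p = 0.00029).

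Against GFP- cells, Slit1 in GFP/+ cells was lower by 0.56 (adjusted p = 0.0076) and by 1.12 on the second probe set (adjusted p = 0.0017). The first of these was no longer called without GFP/+ replicate 2, GFP/+ replicate 3 or GFP- replicate 2 (differences -0.48, -0.51 and -0.56). PAX3-FKHR/GFP cells were above GFP- cells by 0.49, just under the limit, and by 0.57 on the second probe set, which was called (adjusted p = 0.00031). Slit1 is also made in the neural tube, and the mean of the neural tube markers was 5.70 to 5.90 in PAX3-FKHR/GFP, 5.96 to 6.0 in GFP/+ and 6.99 to 7.05 in GFP- samples. Their part in these differences was not tested.

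Slit2 read 8.23, 8.06 and 7.89 in GFP/+ samples, 8.88, 8.96 and 9.03 in GFP- samples and 8.17, 8.28 and 8.37 in PAX3-FKHR/GFP samples. Both GFP positive groups lay below GFP- cells and overlapped each other, with a 1.86-fold difference between GFP/+ and GFP- cells (adjusted p = 8.7e-05). Its other probe sets, with means of 4.55 and 3.54, differed by -0.31 and -0.29 and were not called. Slit3 was lower by 0.53 (adjusted p = 0.0051), a call lost without GFP/+ replicate 2 or GFP- replicate 3 (differences -0.47 and -0.44). The receptor gene Robo1 was at 7.89, 8.17 and 8.18 in PAX3-FKHR/GFP samples, 7.71, 7.75 and 7.54 in GFP/+ samples and 7.43, 7.59 and 7.72 in GFP- samples. PAX3-FKHR/GFP samples were above both other groups, which overlapped. The difference from GFP/+ cells was 0.41 (adjusted p = 0.082), called only without PAX3-FKHR/GFP replicate 1 (0.51, adjusted p = 0.029). That from GFP- cells was 0.50 (adjusted p = 0.0091), which did not hold when replicate 1 or 2 of GFP- or replicate 2 or 3 of PAX3-FKHR/GFP was left out (differences 0.42 to 0.51, adjusted p 0.048 to 0.075). Robo2 was below the array median in every sample.

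**Figure D4:**
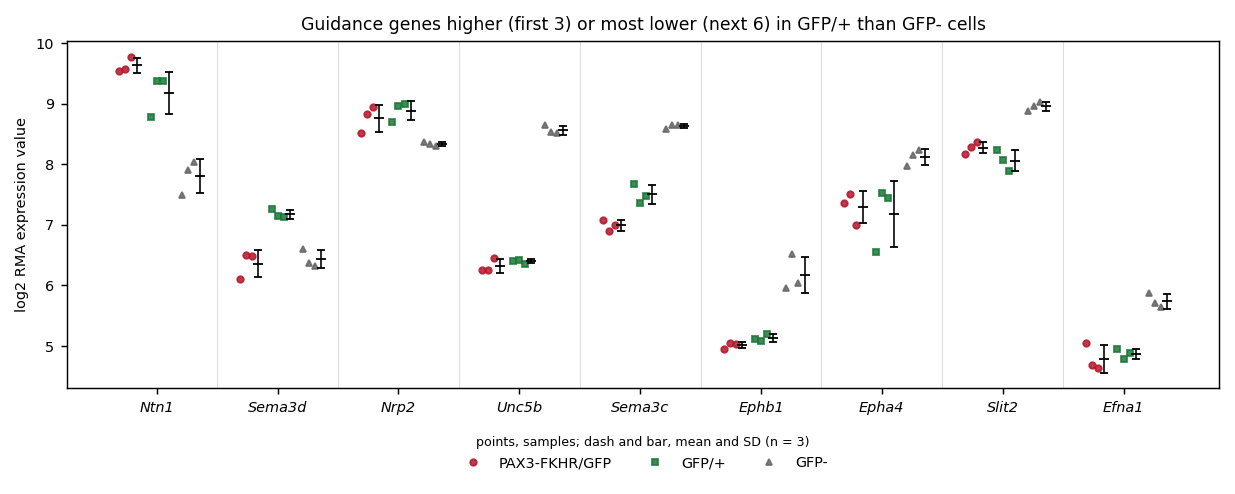
RNA level, as log2 RMA values, of the 3 guidance genes called higher in GFP/+ (green squares) than in GFP- cells (grey triangles) and of the 6 called lower with the largest differences, with PAX3-FKHR/GFP cells as red circles. Each point is a sample, with the mean and SD of 3 samples beside it. Unc5b, at 6.25 to 6.46 in all GFP positive samples and 8.51 to 8.65 in GFP- samples, is the most separated.

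Netrin 1 and its repulsive receptors moved apart between GFP positive and GFP negative cells, with Ntn1 higher in GFP/+ than in GFP- cells and Unc5b and Unc5c lower. Ntn1, which is made in the dermomyotome as well as in the floor plate, was at 8.77, 9.37 and 9.37 in GFP/+ samples, 7.5, 7.91 and 8.03 in GFP- samples and 9.54, 9.58 and 9.78 in PAX3-FKHR/GFP samples. No groups overlapped. It was 2.57-fold higher in GFP/+ than in GFP- cells (adjusted p = 0.00064) and 3.53-fold higher in PAX3-FKHR/GFP cells than there (adjusted p = 2.1e-06). The step from GFP/+ to PAX3-FKHR/GFP cells, 0.46 (95% interval 0.13 to 0.79), was not called (adjusted p = 0.25). These values are from the brighter of its probe sets. On the dimmer, with a mean of 4.07, the groups overlapped and the differences were 0.06 for GFP/+ and 0.21 for PAX3-FKHR/GFP against GFP- cells (adjusted p = 0.78 and 0.44), with no call.

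Unc5b, a netrin receptor of endothelial tip cells, had the largest difference of the 38 genes. It read 6.41, 6.43 and 6.36 in GFP/+ samples, 6.25, 6.26 and 6.46 in PAX3-FKHR/GFP samples and 8.65, 8.53 and 8.51 in GFP- samples. GFP positive samples of both genotypes shared a range far below the GFP- samples, 4.48-fold for GFP/+ (adjusted p = 1.6e-08) and 4.72-fold for PAX3-FKHR/GFP cells (adjusted p = 1.3e-08). The PAX3-FKHR/GFP and GFP/+ samples differed by -0.08 (95% interval -0.27 to 0.12). The dimmer Unc5b probe set read 5.21, 5.22 and 5.12 in GFP/+ samples against 5.72, 6.27 and 5.55 in GFP- samples, a smaller difference of 1.58-fold (adjusted p = 0.029). That call ended when any single GFP/+ replicate or GFP- replicate 1 was left out (adjusted p 0.074 to 0.13), and without GFP- replicate 2 the difference was -0.45, under the limit. Unc5c was at 7.51, 7.41 and 7.25 in GFP/+ samples, 8.27, 8.15 and 8.17 in GFP- samples and 7.66, 7.75 and 7.75 in PAX3-FKHR/GFP samples, an order without overlap. GFP/+ cells were 1.74-fold below GFP- cells (adjusted p = 8.6e-05), and PAX3-FKHR/GFP cells were above GFP/+ cells by 0.33, which was not called (adjusted p = 0.12). These values are from the brighter Unc5c probe set. On the dimmer, PAX3-FKHR/GFP and GFP/+ samples overlapped (0.26, adjusted p = 0.39). There the differences from GFP- cells were -0.62 for PAX3-FKHR/GFP and -0.88 for GFP/+ cells, both called.

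Dcc, the attractive receptor, depended on the probe set. The brightest read 5.01, 5.33 and 5.34 in GFP/+ samples and 4.94, 5.04 and 4.90 in GFP- samples, which overlapped (0.27, adjusted p = 0.18). The dimmest read 4.61, 4.55 and 4.76 against 3.81, 3.76 and 3.59, without overlap, and was called higher (1.89-fold, adjusted p = 0.00014). The third of its probe sets was also called higher (1.55-fold, adjusted p = 0.043). That call ended without replicate 2 or 3 of GFP/+ or of GFP- (adjusted p 0.11 to 0.19). It also ended without the intensity trend (adjusted p = 0.052). None of the Dcc probe sets was called with PAX3-FKHR.

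**Figure D5:**
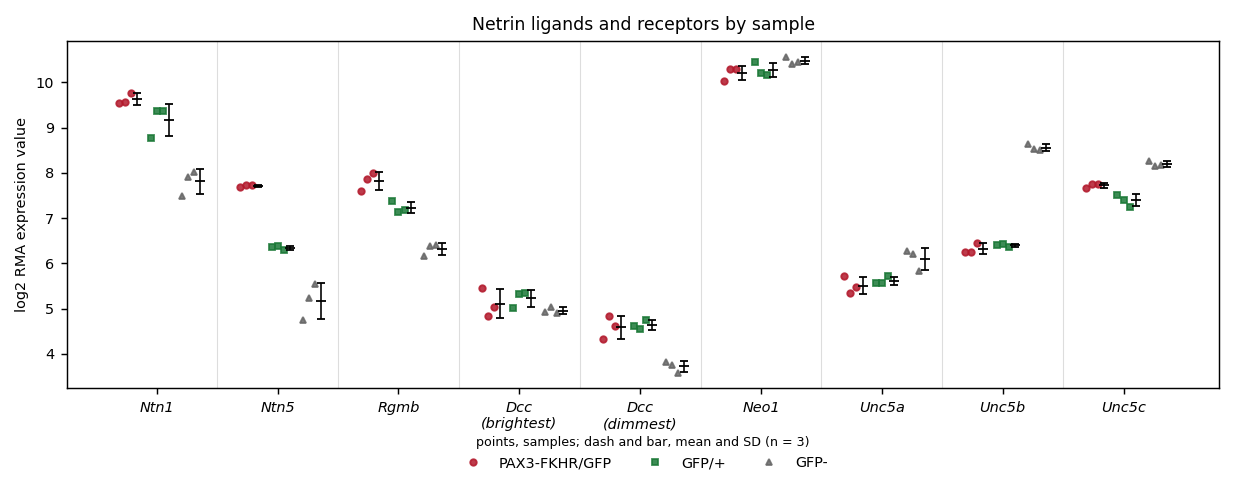
Netrin ligands and receptors by sample, as log2 RMA values, in PAX3-FKHR/GFP (red circles), GFP/+ (green squares) and GFP- cells (grey triangles), with the mean and SD of 3 samples. Ntn1, Ntn5 and Rgmb step down from PAX3-FKHR/GFP to GFP/+ to GFP- cells, Unc5b and Unc5c are highest in GFP- cells, and the 2 Dcc probe sets shown differ in how far GFP- cells lie below the others.

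Other genes of these pathways were read from 4 further lists with 61 measured members. Of 16 other Slit, netrin and related genes 2 were called higher with PAX3-FKHR. Ntn5, a less studied netrin, was at 7.68, 7.73 and 7.73 in PAX3-FKHR/GFP samples, 6.36, 6.39 and 6.30 in GFP/+ samples and 4.75, 5.23 and 5.55 in GFP- samples. It rose 2.57-fold with PAX3-FKHR (adjusted p = 7.7e-06), more than any listed guidance gene at its brightest probe set, and was 2.26-fold higher in GFP/+ than in GFP- cells (adjusted p = 0.0013). Rgmb, a BMP co-receptor that binds the netrin receptor neogenin, rose 1.51-fold with PAX3-FKHR (adjusted p = 0.022) and was 1.88-fold higher in GFP/+ than in GFP- cells (adjusted p = 0.00012). In the latter comparison Draxin, which binds DCC and netrin, and Flrt3, a ligand of UNC5 receptors, were also higher, by 0.64 and 0.52, and Ntn4 was lower by 0.67. Between PAX3-FKHR/GFP and GFP- cells Ntn5 differed 5.81-fold and Rgmb 2.84-fold (adjusted p = 8.6e-07 and 3.3e-06), both higher in PAX3-FKHR/GFP cells, while Unc5a, a further netrin receptor, was lower by 0.59 (adjusted p = 0.015).

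Of 20 other semaphorins and plexins, Sema6a, a transmembrane ligand of A-type plexins, fell 1.51-fold with PAX3-FKHR (adjusted p = 0.0057), from 6.05, 5.92 and 6.02 in GFP/+ samples to 5.30, 5.44 and 5.48. No other of the 20 was called there, and Plxnc1 was lower in GFP/+ than in GFP- cells by 0.50. In PAX3-FKHR/GFP against GFP- cells Sema5b, a transmembrane semaphorin, was lower by 0.57 (adjusted p = 0.0033). Of the 3 other Eph receptors Epha8 was called, higher in PAX3-FKHR/GFP than GFP- cells by 0.62 (adjusted p = 0.0021), and it differed from GFP/+ cells by 0.44 (adjusted p = 0.08). None of the 3 was called by either test in the comparisons with GFP/+ cells, with 1 at an unadjusted p under 0.05 with PAX3-FKHR and 0 in GFP/+ against GFP- cells. Of 22 intracellular effectors, none was called with PAX3-FKHR by limma or the local pooled error test and 3 had an unadjusted p under 0.05, while in GFP/+ against GFP- cells Farp2, an exchange factor of semaphorin signalling, was 2.19-fold higher (adjusted p = 0.00084) and 5 were lower. These were Srgap3, a GTPase activating protein downstream of Robo (2.10-fold), the collapsin response mediators Dpysl3, Crmp1 and Dpysl4 (1.74-fold, 1.67-fold and 1.52-fold) and Vav3, an exchange factor (1.51-fold). In PAX3-FKHR/GFP against GFP- cells Farp2 was again higher (2.00-fold) and Srgap3, Dpysl3 and Crmp1 lower (2.86-fold, 1.78-fold and 1.55-fold). Collapsin response mediators are abundant in young neurons, and neural tube markers were lower in GFP/+ cells, as given above. Any part of neural tube cells in these differences was not tested.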

How the data were processed

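RNA was extracted from sorted cells, amplified in 2 cycles and hybridised to 9 arrays, 3 per group. The authors computed log2 expression values from the scanned arrays with RMA, which corrects background, quantile normalises and summarises probes, and these log2 values were deposited and used unchanged. The study's filter on absent calls and its local pooled error test were not part of the main analysis. Of 45101 probe sets, 64 Affymetrix controls were left out. GEO's platform annotation gave 1 gene symbol for 34945 of the others, several for 932 and none for 9160, and only the first kind named a gene. A gene was read from its brightest probe set over all arrays (18193 genes). Each pair of groups was fitted on its own 6 samples with limma 3.58.1 (lmFit, eBayes with intensity trend) in R 4.3.3, and p-values were adjusted by Benjamini-Hochberg over 45037 probe sets. A call needed an adjusted p under 0.05 and a log2 difference of at least 0.5. SE, 95% intervals and adjusted p-values are from limma throughout. The fit was tested on simulated data. Array number limits the precision. No pair of arrays was identical, but a probe set of Epha5 and another of Efna5 held 1 value in all GFP- samples. The genes, lists and tests were chosen with earlier results of these data known. Named genes were all listed members, with sample values for those with a probe set called with PAX3-FKHR and those with the 6 largest rises and falls between GFP/+ and GFP- cells, and the called genes of the other lists. Some further members have sample values, chosen after seeing them. Alternatives covered the samples fitted, the replicate block, the trend, the local pooled error test, the mean over probe sets, dim probe sets, array medians, the log2 limit and leaving out each sample.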

Additional observations from a re-analysis of the deposited data

How the results depend on the processing

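With a log2 limit of 1 the guidance genes called dropped from 6 to 1 with PAX3-FKHR (Slit1), from 14 to 4 in GFP/+ against GFP- cells and from 13 to 5 in PAX3-FKHR/GFP against GFP- cells. The share of all genes called under the alternatives was not counted, so the counts in this section do not set guidance genes apart. Leaving out each sample in turn gave 3 to 7, 11 to 15 and 12 to 16 called genes, and with PAX3-FKHR 3 were left without PAX3-FKHR/GFP replicate 2 or without GFP/+ replicate 3. Epha3, Sema3d and Slit1 were called in all 6 of these fits. With the mean over the probe sets of a gene, Sema3c lost its call with PAX3-FKHR (-0.30) while Epha7 (0.61) and Efnb1 (0.52) gained calls, and Sema3d (0.42), Efna1 (-0.47) and Slit2 (-0.50) lost theirs in GFP/+ against GFP- cells, where Dcc (0.61) gained one. In PAX3-FKHR/GFP against GFP- cells Slit2 (-0.46) and Robo1 (0.31) lost calls and Efnb1 (0.57), Sema3a (0.63), Slit1 (0.53) and Unc5c (-0.55) gained them. The local pooled error test gave 5, 13 and 13 called genes and dropped Sema3c (-0.49) with PAX3-FKHR. Its difference is between medians. With no log2 limit there were 8, 16 and 19. Replicate numbers were shared between groups, but same-numbered samples correlated at only -0.096 to 0.105 in their deviations from the group means, which gives no sign of pairing and does not show that they had separate sources. With the replicate number as a block 6, 14 and 13 genes were called, and the block ended the call of the dimmest Epha7 probe set (adjusted p = 0.06). No difference of a called gene changed sign under any alternative run. The cause of the lost calls was not tested, apart from the stricter limit. The GFP- cells are a mixture, so a gene lower in GFP/+ cells has no single source, and 5 genes below the array median on all arrays could hide differences.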
